A study of Mus musculus with 4 samples.

Results

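The genes that make prostaglandins and leukotrienes from arachidonic acid were followed in CD11b+Ly6g+ MDSCs (myeloid-derived suppressor cells) of the mouse lung. The 10 genes were chosen by symbol from the 54532 genes counted, and they are Ptgs1, Ptgs2, Ptges, Hpgds, Tbxas1, Alox5, Alox5ap, Lta4h, Ltc4s and Alox15. All 10 had at least 10 counts in at least 1 library and so belong to the 16369 genes compared.

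All groups were C57BL/6 mice 6 to 8 weeks old in a model of the pre-metastatic niche (PMN), the lung made receptive to tumor cells before metastases grow. MCM, the medium conditioned by B16F10 melanoma cells, was given into the peritoneum at 300 μl per mouse on 10 days in a row, and 100000 B16F10 cells followed through the tail vein on day 7. The control mice carried the same model and received no peptide. The 3 other groups received TP5, sFD17 or FR17 under the skin at 40 μM/kg a day, starting on day 3. TP5 is thymopentin, an immune-modulating pentapeptide, given free. In FR17 TP5 is joined by a linker that the protease MMP2 cuts to a backbone that self-assembles, and sFD17 has the same backbone and linker with the residues of TP5 in scrambled order. Lungs were taken on day 10, and the sorted cells of 10 to 12 mice were pooled into 1 mRNA library per group. There is therefore no replicate check on any difference, no test was possible, and the 95% intervals given cover counting error only. Pooled animals and 1 library also mean that a difference describes these libraries and not yet the treatments.

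The libraries held between 15543071 and 19638228 counts. Levels are CPM, a gene's counts relative to the size of its library, scaled by edgeR's TMM factors of 0.849 to 1.17, and a difference is the change in log2 CPM, called 2-fold when its size reaches 1. Ly6g, a sorting marker, stood at 73.1 CPM without peptide, 97.8 with TP5, 111 with sFD17 and 90.7 with FR17. The other sorting marker, Itgam, which encodes CD11b, stood at 301.6 to 433 CPM, and all 16 listed neutrophil markers had counts in every library. Macrophage genes were present too, and Adgre1, which encodes F4/80, stood at 353 CPM without peptide, 269 with TP5, 185 with sFD17 and 345 with FR17. The 14 listed macrophage markers made up 1.08% of the counts without peptide, 0.863% with TP5, 0.397% with sFD17 and 1.56% with FR17, with no gene of the list at 0.

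Phospholipases A2 free arachidonic acid from membranes. Prostaglandin H synthases (cyclooxygenases) turn it into prostaglandin H2, from which terminal synthases make prostaglandins and thromboxane, while 5-lipoxygenase opens the branch to leukotrienes and 12/15-lipoxygenase makes other hydroxylated fatty acids. Leukotriene B4 draws neutrophils, prostaglandin E2 is known for restraining T cells in tumor-bearing hosts, and the cysteinyl leukotrienes and prostaglandin D2 are best known from mast cells, eosinophils and macrophages.

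RefSeq promoters on GRCm38.p6 were matched by symbol for 8 of the 10 genes, and the 250 bases before each annotated start were searched on both strands for the motifs of the TATA box (TATAAA), PU.1 (GAGGAA), Sp1 (GGGCGG), AP-1 (TGANTCA), NF-kB and STAT6. Further motifs were C/EBP in the form TTNNGNAAT or its palindrome TTGCGCAA, CRE whole as TGACGTCA or in part as TGACG, and GATA, which was written as AGATAA or in its other form as TGATAA. The promoters of both prostaglandin H synthases are shown whole, because the level of Ptgs2 far exceeded that of Ptgs1 and the pair lay on opposite sides of the control in sFD17. Capitals mark matches. The letters GAGGAA, the core bound by the myeloid factor PU.1, lie 24 bases before the start of Ptgs1 (chr2:36230176-36230425, plus strand) and 247 bases before that of Ptgs2 (chr1:150099781-150100030, plus strand). In Ptgs2 the letters GGGCGG of Sp1 lie 170 bases before the start and the palindrome TTGCGCAA of C/EBP 69 bases before it.
Ptgs1: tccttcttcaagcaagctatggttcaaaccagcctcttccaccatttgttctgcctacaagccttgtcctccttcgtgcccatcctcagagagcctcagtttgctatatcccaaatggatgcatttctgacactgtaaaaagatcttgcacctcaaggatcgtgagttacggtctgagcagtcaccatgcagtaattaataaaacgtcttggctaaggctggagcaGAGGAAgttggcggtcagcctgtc
Ptgs2: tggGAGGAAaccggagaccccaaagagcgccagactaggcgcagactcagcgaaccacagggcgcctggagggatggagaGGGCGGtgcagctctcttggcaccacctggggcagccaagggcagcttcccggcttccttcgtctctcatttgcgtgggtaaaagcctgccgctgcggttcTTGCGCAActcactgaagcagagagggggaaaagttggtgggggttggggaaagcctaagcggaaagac

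The palindrome was added to the search after the sequences had been read. It was found in 54 of the 32851 promoters of the same length (0.164%), GGGCGG in 32.7% and GAGGAA in 23.3%. GAGGAA was the motif shared by most of the genes, found in 7 of the 8 promoters searched, Ltc4s being the exception. Its surroundings in the other 5 are shown with the match in capitals, on the gene's own strand, where TTCCTC is the same motif read on the opposite strand. The windows are Ptges chr2:30903429-30903458, Hpgds chr6:65144762-65144791, Tbxas1 chr6:38918955-38918984, Alox5 chr6:116461297-116461326 and Lta4h chr10:93453258-93453287.
Ptges: gggacacctccaTTCCTCtgcttcccaccc
Hpgds: ggcttttaggtgGAGGAAgtggcctctggc
Tbxas1: ccctctgcttccTTCCTCtttataaagaaa
Alox5: agagatggggcaGAGGAAcaagggcttcag
Lta4h: gacacccctcggTTCCTCcccgcacctccc

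These matches lie 149, 49, 19, 136 and 126 bases before the starts, in that order. The RefSeq starts of Ptges, Hpgds, Tbxas1 and Ltc4s lie inside these genes as the deposited coordinates give them, so all or part of each window is within the gene. The match in Lta4h lies within a match to a form of the NF-kB motif, and the match in Tbxas1 adjoins a TATA box (TATAAA on the opposite strand). Of the other motifs, that of Sp1 was found in 3 of the 8 promoters, those of STAT6 and NF-kB in 2 each (5.85% and 17.6% of all promoters), and those of AP-1 and the TATA box in 1 (6.75% and 12.4%). TTNNGNAAT was found in 1, that of Hpgds (10.2%). The forms of CRE (1.55% and 17.8% of all promoters) and GATA (9.99% and 7.94%) are not among the letters of these 8 windows. A match describes letters and is not a site of binding.

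Against the control library, 2 of the 10 genes were at least 2-fold apart in TP5, where 8.18% of all genes compared were, and both were lower, as 4.99% of all genes were. In sFD17, 3 of the 10 were at least 2-fold apart, beside 11.8% of all genes, and all 3 were lower, as 6.47% of all genes were. In FR17 none of the 10 reached 2-fold, beside 7.50% of all genes. Among the more abundant genes (50 or more counts in either library of the pair), which include all 10 and were set after seeing the data, these shares were 3.19%, 6.60% and 2.94%. The genes lower in TP5 were Alox15 and Ltc4s, and those lower in sFD17 were Alox15, Ltc4s and Hpgds. The median difference of the 10 genes was -0.28 with TP5, -0.25 with sFD17 and -0.04 with FR17, beside 0.00, -0.03 and 0.02 for all genes. The 3 comparisons share the control library.

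**Figure D1:**
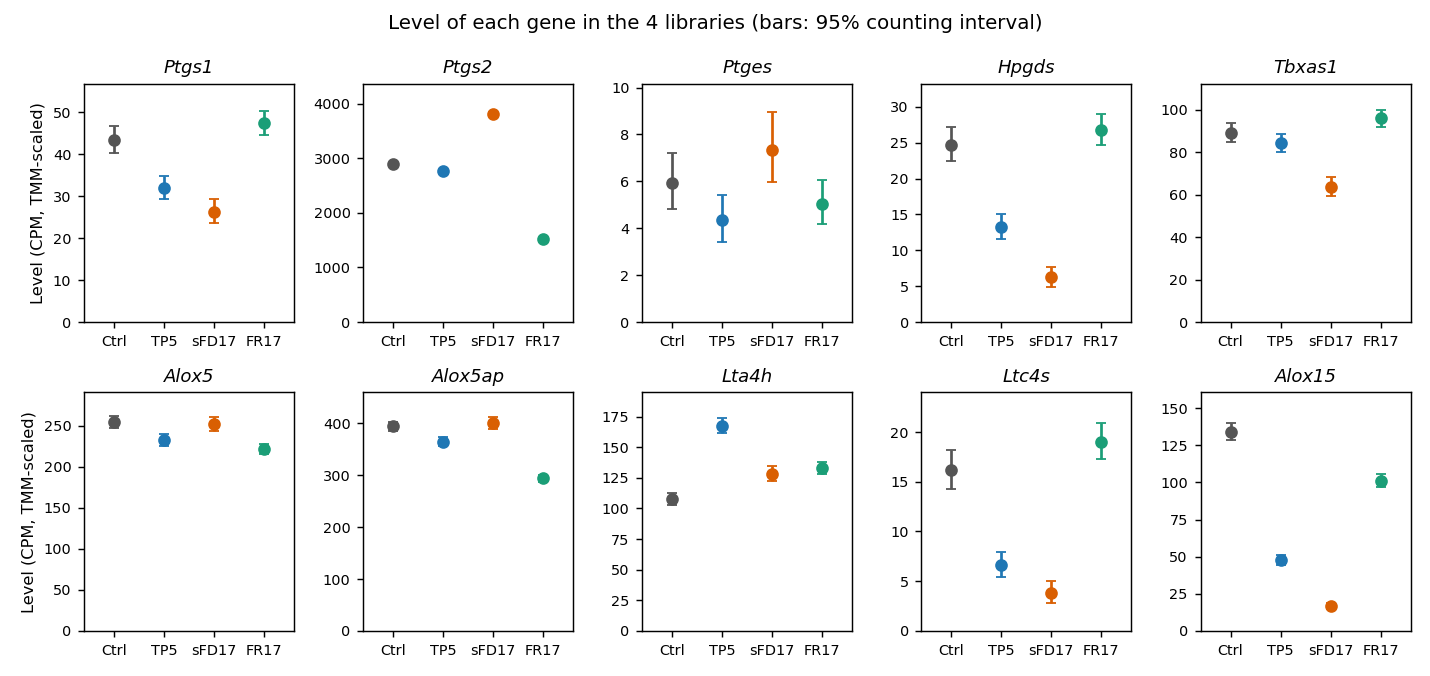
Level of each of the 10 genes in CPM (vertical axes, linear and starting at 0) in the 4 libraries, with bars for the 95% counting interval, where wider than the point. Hpgds, Ltc4s and Alox15 are lowest in sFD17 (6.21, 3.79 and 16.5 CPM) and next lowest in TP5, while Ptgs2 is lowest in FR17 (1512 CPM).

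The first step of the prostaglandin branch was dominated by Ptgs2. Ptgs2 (ENSMUSG00000032487, chr1:150100031-150108227) encodes the inducible cyclooxygenase COX-2 and Ptgs1 (ENSMUSG00000047250, chr2:36230426-36252272) the constitutive COX-1. Per kilobase of exon, the level of Ptgs2 was 56.5 times that of Ptgs1 without peptide, 73.1 times with TP5, 123 times with sFD17 and 27.1 times with FR17. Ptgs2 alone gave 73.0%, 74.3%, 80.8% and 61.6% of the counts on the 10 genes in these libraries, and the 10 genes together gave 0.287% (FR17) to 0.401% (sFD17) of all counts.

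Ptgs2 stood at 2894 CPM without peptide (48880 counts), 2759 CPM with TP5 (48388), 3817 CPM with sFD17 (50376) and 1512 CPM with FR17 (34716). FR17 was the low library and sFD17 the high one, with counting intervals that do not overlap. Against the control library the log2 difference was -0.94 in FR17 (interval -0.96 to -0.92), 1.91-fold lower, and 702 of the 16369 genes had a lower value there. It was 0.40 in sFD17 (0.38 to 0.42) and -0.07 in TP5 (-0.09 to -0.05). Ptgs2 was thus just short of 2-fold in FR17, and with library size in place of TMM its difference was -0.69.

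Ptgs1 took another order, with 43.5 CPM without peptide (734 counts), 32.0 with TP5 (561), 26.3 with sFD17 (347) and 47.4 with FR17 (1088). It was 1.36-fold lower than control with TP5 (log2 -0.44, -0.60 to -0.28) and 1.65-fold lower with sFD17 (-0.72, -0.91 to -0.54), and its difference of 0.12 with FR17 had an interval that includes 0 (-0.01 to 0.26). The 2 cyclooxygenase genes thus stood on opposite sides of the control in sFD17, and neither reached 2-fold against it.

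Among the terminal synthases, Hpgds differed most between libraries. Hpgds (ENSMUSG00000029919, chr6:65117293-65144908, minus strand), the hematopoietic prostaglandin D synthase, stood at 24.7 CPM without peptide (417 counts), 13.3 with TP5 (233), 6.21 with sFD17 (82) and 26.8 with FR17 (615). The control and FR17 intervals overlap, and TP5 and sFD17 lie below both. It was 3.97-fold lower than control in sFD17 (log2 -1.97, -2.35 to -1.65), where 225 genes had a lower value, and 1.86-fold lower in TP5 (-0.89, -1.13 to -0.66). In FR17 the difference was 0.12 (-0.06 to 0.30).

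Tbxas1 (ENSMUSG00000029925, chr6:38875404-39084585), which encodes thromboxane synthase, stood at 89.0 CPM without peptide (1504 counts), 84.3 with TP5 (1478), 63.7 with sFD17 (840) and 95.9 with FR17 (2202). Only sFD17 stood clear of the rest, 1.40-fold below control (log2 -0.48, -0.61 to -0.36). Ptges (ENSMUSG00000050737, chr2:30889471-30929863, minus strand), the inducible prostaglandin E synthase that works with COX-2, was the lowest of the 10 genes per kilobase in the control, TP5 and FR17 libraries. Its level was 5.92 CPM without peptide (100 counts), 4.33 with TP5 (76), 7.35 with sFD17 (97) and 5.05 with FR17 (116). At these counts a difference from control was not detectable in sFD17 (0.31, -0.11 to 0.73) or FR17 (-0.22, -0.63 to 0.17), and in TP5 the interval ended near 0 (-0.44, -0.90 to -0.01). FR17 thus combined the lowest level of Ptgs2 with levels of Hpgds and Tbxas1 close to those of the control library.

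The core of the leukotriene branch varied least. Alox5 (ENSMUSG00000025701, chr6:116410077-116461178, minus strand) encodes 5-lipoxygenase, and Alox5ap (ENSMUSG00000060063, chr5:149264767-149288153) the membrane protein FLAP that presents arachidonic acid to it. Alox5 stood at 254 CPM without peptide (4294 counts), 233 with TP5 (4080), 252 with sFD17 (3328) and 222 with FR17 (5096), a range of 1.15-fold. Alox5ap stood at 394, 365, 401 and 294 CPM in the same order (6658, 6405, 5291 and 6755 counts), a range of 1.36-fold with FR17 lowest. Per kilobase the level of Alox5ap was 4.48 times that of Alox5 without peptide, 4.54 times with TP5, 4.60 times with sFD17 and 3.83 times with FR17.

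The difference of Alox5ap between FR17 and control was -0.42 (-0.47 to -0.37) and kept its sign with library size alone (-0.18). That of Alox5 was -0.20 (-0.25 to -0.14) and turned to 0.05 with library size alone, so its direction depends on the scaling. Lta4h (ENSMUSG00000015889, chr10:93453411-93484875), whose enzyme makes leukotriene B4, was above control in every peptide library. Its level was 108 CPM without peptide (1821 counts), 167 with TP5 (2937), 128 with sFD17 (1694) and 133 with FR17 (3048). It was highest in TP5, 1.55-fold above control (log2 0.63, 0.55 to 0.72), and lowest in the control library. The differences in sFD17 (0.25, 0.16 to 0.35) and FR17 (0.30, 0.22 to 0.39) were smaller, and that in sFD17 came to 0.04 with library size alone.

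Ltc4s (ENSMUSG00000020377, chr11:50236461-50238616, minus strand), the enzyme that adds glutathione to make leukotriene C4, had another order of libraries than the 3 other genes of its branch. It stood at 16.2 CPM without peptide (273 counts), 6.61 with TP5 (116), 3.79 with sFD17 (50) and 19.0 with FR17 (437). TP5 and sFD17 were the low libraries, and the intervals of control and FR17 overlap. Against control it was 2.44-fold lower with TP5 (log2 -1.27, -1.62 to -0.97) and 4.27-fold lower with sFD17 (-2.06, -2.56 to -1.65), and the difference with FR17 was 0.23 (0.01 to 0.46). Ltc4s shares 268 of its 1014 exon bases with Gm26542 on the opposite strand (43, 19, 20 and 47 counts). The study names a directional library kit, but the use of strand in counting is not given in the sources used here. Reads of the pair therefore cannot be told apart with certainty. For Alox5ap the shared stretch, with Gm19719, is 189 of 1420 bases, and Ptgs1 and Tbxas1 share 148 and 144 bases with opposite-strand genes that had at most 10 and 23 counts.

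Alox15 (ENSMUSG00000018924, chr11:70344152-70352031, minus strand), the 12/15-lipoxygenase known from resident macrophages and eosinophils, showed the widest range of the 10 genes. It stood at 134 CPM without peptide (2267 counts), 47.7 with TP5 (836), 16.5 with sFD17 (218) and 101 with FR17 (2324), and no 2 of the 4 intervals overlap. The difference from control was -3.01 in sFD17 (-3.23 to -2.82), 8.12-fold lower, and only 33 of the 16369 genes had a lower value. In TP5 it was -1.49 (-1.61 to -1.38), 2.82-fold lower, with 266 genes lower. In FR17 it was -0.41 (-0.49 to -0.32). Alox15 was thus below control in all 3 peptide libraries, as it also was with DESeq2's size factors and with library size alone.

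These differences changed the order of the genes. Per kilobase, Ptgs2, Alox5ap and Alox5 were the 3 highest in every library, at 632, 278 and 61.9 CPM per kilobase in the control library and 330.2, 207 and 54.1 in FR17. Alox15 held rank 4 in the control and FR17 libraries (54.7 and 41.3 CPM per kilobase), rank 5 in TP5 (19.4) and rank 7 in sFD17 (6.73). In sFD17 Tbxas1 (7.00), Ptgs1 (6.77) and Alox15 did not differ beyond their counting intervals, and neither did Lta4h (17.7) and Ltc4s (15.9) in the control library. Hpgds was last in sFD17, at 0.967 CPM per kilobase.

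**Figure D2:**
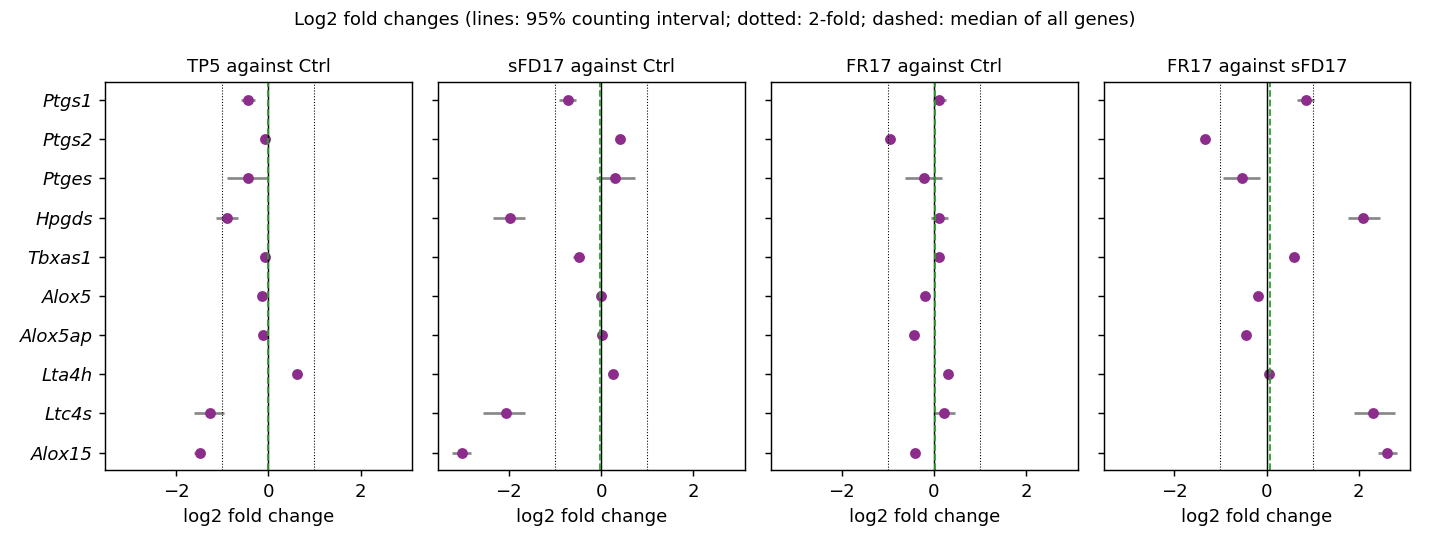
Log2 fold change of each gene (points) with its 95% counting interval (lines) for the 3 peptide libraries against control and for FR17 against sFD17. Dotted lines mark 2-fold and the dashed line the median of all genes; Alox15 (-3.01), Ltc4s (-2.06) and Hpgds (-1.97) lie past the 2-fold line in sFD17, and no gene does in FR17 against control.

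The peptides were compared with each other at the same dose and times, in 3 pairs. FR17 and sFD17, which differ in the order of the residues of TP5, were at least 2-fold apart in 4 of the 10 genes, beside 22.1% of all genes and 17.6% of the more abundant ones. Of these, 3 were higher in FR17 (11.3% of all genes) and 1 was lower (10.8%), and with library size alone 5 were higher and 0 lower, beside 25.7% and 4.78% of all genes. Alox15 was 6.13-fold higher in FR17 (log2 2.61, 2.41 to 2.82), Ltc4s 5.02-fold (2.30, 1.90 to 2.78) and Hpgds 4.31-fold (2.09, 1.77 to 2.46). Ptgs2 was 2.52-fold lower (-1.34, -1.36 to -1.32), or -0.87 with library size alone. Ptgs1 was higher by 0.85 (0.67 to 1.03) and Tbxas1 by 0.59 (0.48 to 0.71), under 2-fold, but both passed it with library size alone (1.31 and 1.05). Lta4h differed by 0.05, with an interval of -0.04 to 0.14.

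FR17 and TP5, which share the order of those residues and differ in the linker and backbone, were at least 2-fold apart in 3 of the 10 genes, beside 9.92% of all genes and 5.29% of the more abundant ones. All 3 were higher in FR17, as 7.04% of all genes were. These were Ltc4s (log2 1.51, 1.23 to 1.83), Alox15 (1.09, 0.97 to 1.20) and Hpgds (1.01, 0.79 to 1.24), the last at the edge of the rule. Ptgs2 was lower in FR17 by 0.87 on the log2 scale (-0.87, -0.89 to -0.85). For Ptges the difference was not detectable (0.22, -0.21 to 0.66), and for Alox5 it was small (-0.07, -0.13 to -0.01), 0.13 with library size alone.

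sFD17 and TP5, which differ in the residue order as well as in linker and backbone, were at least 2-fold apart in 2 of the 10 genes, beside 12.4% of all genes and 6.89% of the more abundant ones. Both were lower in sFD17, as 5.64% of all genes were. These were Alox15 (-1.52, -1.75 to -1.31) and Hpgds (-1.08, -1.48 to -0.73). Ltc4s was lower by 0.79 on the log2 scale (-0.79, -1.31 to -0.31) and passed 2-fold with library size alone (-1.04). Ptgs2 was higher in sFD17 by 0.47 (0.45 to 0.49). The median over the 10 genes was 0.32 for FR17 against sFD17, 0.20 for FR17 against TP5 and -0.33 for sFD17 against TP5, beside 0.07, -0.02 and -0.04 for all genes. The pairs share libraries, and a difference under 2-fold does not show that peptides act alike.

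Of the 14 macrophage markers, 13 were lower than control with TP5, 14 with sFD17 and 2 with FR17 after scaling, and their sum stood at 0.774, 0.429 and 1.22 times control. In a bulk library fewer cells of a type and less RNA per cell cannot be told apart. Set against the summed counts of the 14 macrophage markers of the same library, Hpgds came to 2.26 counts per 1000 without peptide (2.05 to 2.49), 1.57 with TP5 (1.38 to 1.79), 1.33 with sFD17 (1.06 to 1.65) and 2.01 with FR17 (1.85 to 2.17). On this scale TP5 and sFD17 were below control, and FR17 overlapped it. Of the list's counts, however, 52.1% to 61.6% were of Chil3 and Apoe. Set against each of the 14 markers on its own, an alternative added after the values were seen, the interval of Hpgds was below that of control for 7 markers with TP5, 8 with sFD17 and 2 with FR17, and overlapped it for the others. Per 1000 counts of C1qc, Hpgds gave 39.7, 39.8, 36.4 and 38.9 without peptide, with TP5, with sFD17 and with FR17, with overlapping intervals. Of 9799 genes searched, however, C1qc held rank 2 in likeness to Hpgds by the 3 differences from control (log2 distance 0.11). The flat ratio follows from that likeness and is not a separate test. Per 1000 counts of Csf1r, Hpgds gave 26.0, 15.1, 6.86 and 27.5 in the same order, with TP5 and sFD17 below control. Whether Hpgds differs relative to macrophage genes thus depends on the marker.

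Ltc4s came to 1.48 per 1000 macrophage marker counts without peptide (1.31 to 1.67), 0.783 with TP5 (0.647 to 0.939), 0.810 with sFD17 (0.601 to 1.07) and 1.43 with FR17, so that TP5 and sFD17 were below control on this scale while the interval of FR17 overlapped it. Against single markers it was below control for 12 of 14 with TP5 and 8 with sFD17, and in FR17 it was below for 0 and above for 1. Per 1000 counts of Mrc1, a mannose receptor, Ltc4s gave 31.0, 19.8, 30.3 and 30.8, with no detectable difference between sFD17 and control. Alox15 came to 12.3, 5.64, 3.53 and 7.58 per 1000 in the same order, highest in the control library and lowest in sFD17, with no overlap of the 4 intervals. It was below control in each of the 3 peptide libraries against all 14 single markers. The part of macrophages in these results was not tested.

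**Figure D3:**
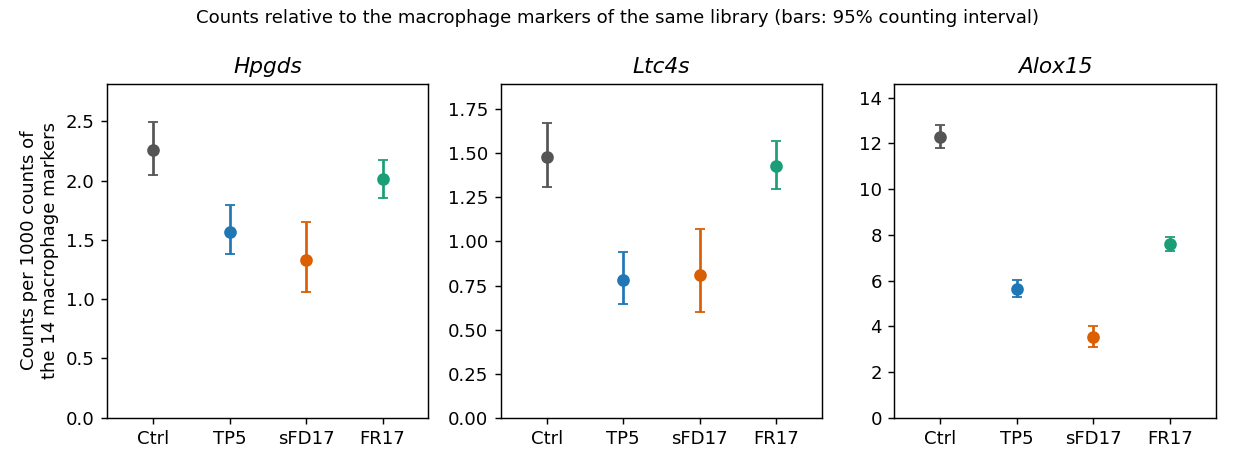
Counts of Hpgds, Ltc4s and Alox15 per 1000 counts of the 14 macrophage markers of the same library (vertical axes, starting at 0), with bars for the 95% counting interval, in the 4 libraries. Against this sum, 52.1% to 61.6% of it Chil3 and Apoe, Hpgds and Ltc4s are lower with TP5 and sFD17 than without peptide, which holds against only 7 to 12 of the 14 single markers, and Alox15 runs from 3.53 in sFD17 to 12.3 in the control library.

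Markers of other cells known to use these genes were summed in the same way. The 6 eosinophil markers made up 0.00577% of the counts without peptide, 0.00492% with TP5, 0.00322% with sFD17 and 0.00793% with FR17, none at 0. Most of these counts were of Siglecf, also a macrophage marker, with 879 of 989 without peptide, 577 of 845 with TP5, 398 of 501 with sFD17 and 1219 of 1557 with FR17. Without Siglecf, a choice made after the values were seen, the 5 others summed to 110, 268, 103 and 338 counts (0.000642%, 0.00156%, 0.000663% and 0.00172%), so that TP5 turned from below to above control. The 12 mast cell and basophil markers summed to 0.234% to 0.488%, nearly all of it Hdc. The 11 others made up 0.00301% without peptide, 0.00354% with TP5, 0.00404% with sFD17 and 0.00690% with FR17, and Tpsab1 was at 0 in sFD17. After scaling, all 11 were higher than control in FR17, with their sum at 1.94 times control. In TP5 5 of the 11 were higher and 6 lower, and the same numbers held in sFD17. Most of their 628 counts in sFD17 were of Kit (285) and Gata2 (183). The others moved both ways in sFD17. Tpsb2, a tryptase, had 5 counts against 19 without peptide, and Ms4a2, a chain of the IgE receptor, 8 against 21. Fcer1a, another chain of that receptor, had 13 against 5, and the basophil proteases Prss34 and Mcpt8 had 62 and 32 against 18 each.

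Ptgs1 and Tbxas1 are also abundant in platelets. Leaving out Pf4, the 11 platelet markers made up 0.00448% of the counts without peptide, 0.00539% with TP5, 0.00548% with sFD17 and 0.00627% with FR17, with Gp1bb at 0 in every library. With Pf4 the shares were 0.0146%, 0.00920%, 0.00706% and 0.0213%. Relative to the macrophage list, Ptgs1 gave 3.98, 3.79, 5.62 and 3.55 counts per 1000, and Tbxas1 8.16, 9.97, 13.6 and 7.19, both highest in sFD17. Relative to the 16 neutrophil markers both were lowest in sFD17, with 1.19, 0.810, 0.558 and 1.48 counts per 1000 for Ptgs1 and 2.45, 2.13, 1.35 and 2.99 for Tbxas1, so the order of the libraries depends on the list. The part of platelets, eosinophils and mast cells was not tested.

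Lists of other cell types moved as well. After scaling, the summed T and NK cell markers stood at 0.736 times control with TP5, 0.668 times with sFD17 and 2.28 times with FR17, and 8, 7 and 0 of the 12 were lower. The fibroblast and smooth muscle markers stood at 0.632, 0.951 and 1.05 times control, with all 8 lower in TP5, and the endothelial ones at 0.785, 1.10 and 1.29 times, with 7 of 8 lower in TP5. The monocyte markers stood at 1.11, 1.35 and 0.892 times, with 7 of 8 higher in TP5, 4 in sFD17 and 6 in FR17. Most of the monocyte counts were of Nr4a1 (41686 of 59170 without peptide), which stood at 2468 CPM without peptide and 1985 with FR17. Dendritic cell markers stood at 1.75, 1.04 and 1.31 times (7, 5 and 7 of 8 higher), and B and plasma cell markers at 1.33, 1.08 and 1.24 times (7, 6 and 8 of 8 higher). Epithelial markers stood at 1.48, 2.02 and 1.19 times, with 6, 5 and 6 of 8 higher. Most epithelial counts were of Scgb1a1, with 9541 of 11052 without peptide and 16131 of 17435 with sFD17. In sFD17 3 of the 8 were lower, among them Sftpc (28.8 CPM without peptide, 18.1 with sFD17). The part of these cells in the differences of the 10 genes was not tested.

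For Ptgs2 and the leukotriene genes, which neutrophils use, counts per 1000 counts of the 16 neutrophil markers were compared. These markers made up 3.59% of the counts without peptide, 4.03% with TP5, 4.00% with sFD17 and 3.75% with FR17. After scaling their sum stood at 1.09, 1.3 and 0.881 times control with TP5, sFD17 and FR17, so FR17 turned from above to below control. Of the 16 markers 12 were higher in TP5 and 15 in sFD17, and in FR17 8 were higher and 8 lower. Ptgs2 gave 79.5 per 1000 without peptide, 69.9 with TP5, 81.0 with sFD17 and 47.2 with FR17, lowest in FR17. Lta4h gave 2.96, 4.24, 2.72 and 4.14, high in TP5 and FR17 and low in the control and sFD17. Alox5 gave 6.99, 5.89, 5.35 and 6.93, and Alox5ap 10.8, 9.25, 8.51 and 9.18.

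These orders depend on the marker, as the same counts set against each of the 16 markers on its own showed. In FR17 Ptgs2 was below control for 14 markers and above it for 1, Csf3r, which was itself lowest in FR17 (4952, 3571, 5947 and 2409 CPM in the same order). Per 1000 counts of Csf3r Ptgs2 gave 584, 772, 642 and 628, lowest in the control library. With TP5 Ptgs2, Alox5 and Alox5ap were each below control for 13 markers and above it for 3 (Cxcr2, Csf3r and Il1r2). In sFD17 Alox5 and Alox5ap were below for 15 and above for 0, and Ptgs2 was below for 9 and above for 5. In FR17 Alox5 was below for 10 and above for 4, and Alox5ap below for 12 and above for 3, among them Csf3r, against which it gave 79.6 per 1000 without peptide and 122 with FR17. Lta4h was above control for 10 markers and below for 4 with TP5, above for 1 and below for 10 with sFD17, and above for 9 and below for 3 with FR17. The part of neutrophils in these results was not tested.

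The genes whose 3 differences from control were most like those of a given gene were sought among 9799 others with at least 50 counts in every library, by Euclidean distance on the log2 scale. For Ptgs2 they were Sh2d3c (distance 0.08) and Xylt1 (0.10). Sh2d3c had differences of -0.15 with TP5, 0.40 with sFD17 and -0.94 with FR17. For Hpgds C1qc was among them (0.11), with -1.86 in sFD17. For Ltc4s they were Adarb1 (0.10) and F13a1 (0.17) (coagulation factor XIII A). F13a1 is 1 of the 8 monocyte markers and the only one of them lower than control with TP5, so it does not stand for that list. Alox15 had no near match, since the closest were Cd5l (0.26), a macrophage gene, and Ltbp1 (0.67). The search rests on 3 values per gene that share the control library.

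The other genes of eicosanoid metabolism were taken from 6 lists of 68 symbols, of which 66 are in the file and 52 had enough counts. Against control 8 of the 52 were at least 2-fold apart with TP5 (2 higher, 6 lower), 14 with sFD17 (5 higher, 9 lower) and 4 with FR17 (2 higher, 2 lower, or 3 and 0 with library size alone). Of all genes 3.20% were higher and 4.99% lower in TP5, 5.32% and 6.47% in sFD17, and 3.92% and 3.58% in FR17. Several of these calls rest on few counts, and with at least 10 counts in every library the numbers were 2, 8 and 1 of 42, beside 3.74%, 6.79% and 3.33% of all 13466 genes that pass this filter.

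**Figure D4:**
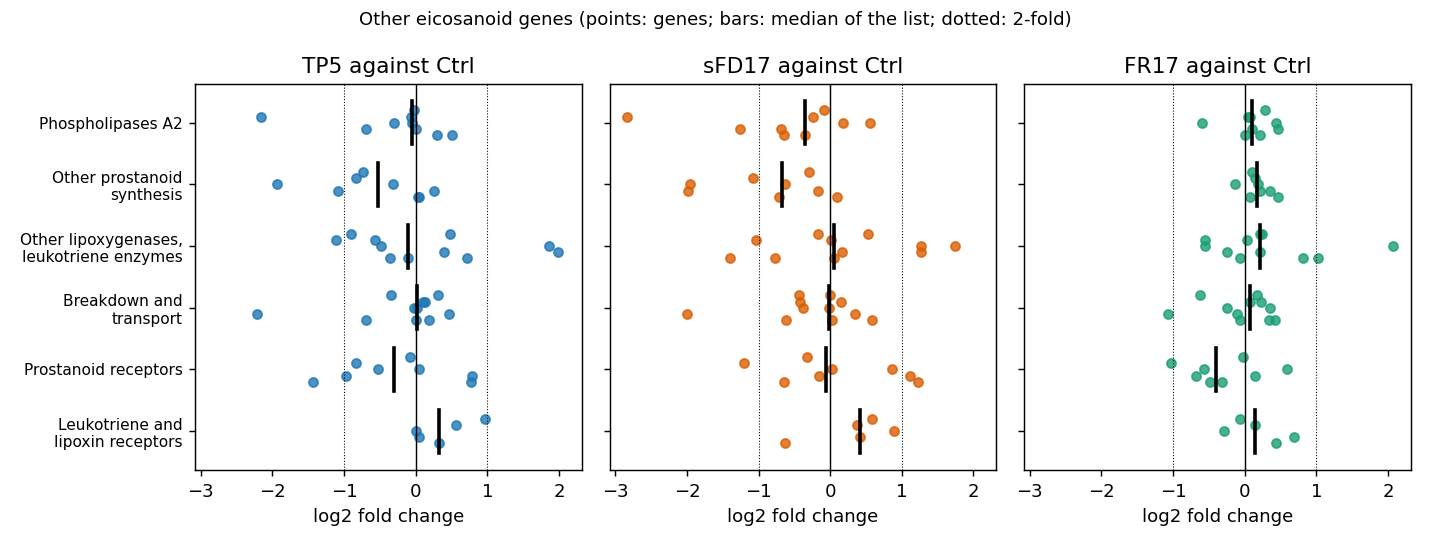
Log2 fold change against control of the 52 other eicosanoid genes (points), in 6 lists, for each peptide library; bars are list medians and dotted lines 2-fold. The list of other prostanoid synthesis genes has its median at -0.52 with TP5, -0.67 with sFD17 and 0.17 with FR17.

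Of the phospholipases A2, the family that supplies arachidonic acid, 9 were compared, with medians of -0.05 with TP5, -0.35 with sFD17 and 0.10 with FR17. Pla2g4a, named after its values were seen, had 281 counts without peptide, 286 with TP5, 207 with sFD17 and 468 with FR17. Its differences from control were -0.03, -0.08 and 0.29. Pla2g2d, a secreted enzyme known from resident myeloid cells of lymphoid tissue, had 339 counts without peptide, 77 with TP5, 36 with sFD17 and 473 with FR17. Its difference was -2.16 with TP5 (-2.57 to -1.83) and -2.83 with sFD17 (-3.42 to -2.38), beside 0.04 with FR17. Pla2g15, the lysosomal enzyme, stood at 84.2, 52.2, 35.2 and 116 CPM, with -1.26 in sFD17. Of the 9 genes, 1 was at least 2-fold lower in TP5 (Pla2g2d), 2 in sFD17 (Pla2g2d and Pla2g15) and 0 in FR17. Both were lowest in sFD17, like Hpgds, Ltc4s and Alox15. Pla2g7, which breaks down platelet-activating factor, stood at 539, 433, 609 and 356 CPM, lowest in FR17 like Ptgs2.

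Of the other prostanoid synthesis genes 8 were compared, of which 2 were at least 2-fold lower for TP5, 3 for sFD17 and 0 for FR17, and none was 2-fold higher. Ptgis, the prostacyclin synthase, had 315 counts without peptide, 84 with TP5, 62 with sFD17 and 390 with FR17. It was at least 2-fold lower in TP5 (-1.94, -2.33 to -1.61) and sFD17 (-1.96, -2.41 to -1.59), and its difference in FR17 was -0.13. Fam213b, the prostamide and prostaglandin F synthase, was lower by 1.08 on the log2 scale in sFD17 (-1.08, -1.53 to -0.69). Akr1b3, an aldose reductase with prostaglandin F synthase activity, stood at 51.6 CPM without peptide, 52.9 with TP5, 31.4 with sFD17 and 71.5 with FR17. Ptges3, the constitutive prostaglandin E synthase, varied less, from 39.7 CPM in sFD17 to 57.0 in FR17.

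Of the other lipoxygenases and leukotriene enzymes 11 were compared, with medians of -0.11 with TP5, 0.06 with sFD17 and 0.22 with FR17. The numbers at least 2-fold higher and lower were 2 and 1 for TP5, 3 and 2 for sFD17, and 2 and 0 for FR17, most of them lipoxygenases with 33 or fewer counts. Mgst3, a glutathione transferase that can make leukotriene C4, had 121, 116, 35 and 293 counts, and was lower by 1.40 on the log2 scale in sFD17 (-1.40, -2.02 to -0.88), as Ltc4s was. Mgst2, which shares that activity, stood at 16.5 CPM without peptide, 23.2 with TP5, 23.9 with sFD17 and 19.6 with FR17, the control lowest. Ggt1, which turns leukotriene C4 into D4, had 52, 38, 139 and 47 counts and stood 1.74 above control in sFD17 (1.31 to 2.26). Ggt5, which does the same step, stood at 72.8, 49.1, 73.5 and 49.4 CPM.

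Of the genes of breakdown and transport 11 were compared, with medians of 0.02, -0.01 and 0.07. The 1 at least 2-fold lower in each peptide library was Ephx2, named after its values were seen, with 16, 2, 2 and 9 counts. Hpgd, which inactivates prostaglandins, stood at 63.5 CPM without peptide, 62.0 with TP5, 48.9 with sFD17 and 81.4 with FR17. Cyp4f18, which inactivates leukotriene B4 in neutrophils, stood at 590.2, 463, 590.3 and 384 CPM, lowest in FR17.

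Of the prostanoid receptors 8 were compared, with medians of -0.30 with TP5, -0.06 with sFD17 and -0.40 with FR17. The numbers 2-fold higher and lower were 0 and 1 for TP5, 2 and 1 for sFD17, and 0 and 1 for FR17. Ptgir, the prostacyclin receptor, had 385 counts without peptide, 690 with TP5, 655 with sFD17 and 578 with FR17, and was at least 2-fold above control with sFD17 (1.12, 0.94 to 1.31), beside 0.78 with TP5 and 0.14 with FR17. Ptgir was thus highest in TP5 and sFD17 (39.3 and 49.6 CPM), the libraries in which Ptgis was 2-fold lower. Ptger4, a receptor of prostaglandin E2, stood at 87.4, 82.5, 69.7 and 86.0 CPM.

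The leukotriene and lipoxin receptors had 5 genes compared, none at 2-fold, and medians of 0.33, 0.41 and 0.15. Ltb4r1, the main receptor of leukotriene B4 on neutrophils, stood at 72.1 CPM without peptide, 106 with TP5, 93.8 with sFD17 and 79.9 with FR17. Like Lta4h it was highest in TP5 and lowest in the control library. Fpr2, which binds formyl peptides and lipoxin A4, stood at 233, 232, 432 and 190.5 CPM, highest in sFD17 (0.89 above control, 0.84 to 0.95).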

How the data were processed

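mRNA of lung CD11b+Ly6g+ MDSCs was sequenced in 4 libraries, 1 per group. The file the authors deposited holds raw counts of reads for each gene, not normalized, and the submitters' processing notes name HISAT2 2.0.5, StringTie 1.3.3b, featureCounts 1.5.0-p3, edgeR 3.18.1 and GRCm38.p6. The library kit that the study names is directional, but whether counting used the strand is not given in the sources used here. Of 54532 gene identifiers, 54495 are in GENCODE M21, 53585 of them with the same start and end, those of all 10 genes included. The row with most counts was used for 100 repeated symbols. Columns left unmapped numbered 0.

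R 4.3.3, edgeR 4.0.16 (TMM factors, log2 CPM, prior count 2), DESeq2 1.42.0, pandas 2.3.3, numpy 2.4.6, scipy 1.17.1 and matplotlib 3.10.9 were used. Genes that reached 10 counts in any library were compared, and 2-fold was the rule for a call, because 1 library per group allows no test. Intervals are exact binomial (Clopper-Pearson) at 95%, on counts without molecular identifiers. The calculation was checked on simulated data. Totals of 15543071 to 19638228 counts put 3 counts at 0.131 to 0.227 CPM.

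The 10 genes, the lists and the rules were chosen with earlier results of these data known. From each list of eicosanoid genes, those named are the 2 with the highest mean CPM and up to 4 with the largest 2-fold difference from control and at least 50 counts in 1 of the 2 libraries. Alternatives were DESeq2 size factors, library size alone, a prior count of 0.5, other filters, a 1.5-fold rule, marker shares without the 10 most abundant genes and, added after seeing the data, lists without 1 gene and each macrophage or neutrophil marker on its own. The study's unreplicated negative binomial test was not used. Some genes that the rules select are not reported here.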

Additional observations from a re-analysis of the deposited data

How the results depend on the processing

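No paired analysis was possible because each group has 1 library, and for the same reason no library could be left out. With DESeq2 size factors 0 of the 60 gene differences changed its call, and 2, of Alox5 and Lta4h, changed sign near 0. Library size alone moved the median of all genes to 0.05 with TP5, -0.23 with sFD17 and 0.26 with FR17 against control, to 0.52 for FR17 against sFD17, 0.17 for FR17 against TP5 and -0.30 for sFD17 against TP5. It changed 4 calls and 8 signs, all 8 of Alox5, Alox5ap and Ptges, and moved the median of the 10 genes to -0.46 in sFD17, 0.20 in FR17, 0.78 for FR17 against sFD17, 0.39 for FR17 against TP5 and -0.60 for sFD17 against TP5. The calls of Alox15 and Ltc4s in TP5 and of Alox15, Ltc4s and Hpgds in sFD17 against control held under both scalings. A prior count of 0.5 moved no gene past its counting interval.

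At 1.5-fold 4 genes in place of 2 were called in TP5, 1 in place of 0 in FR17, and 4 in place of 2 for sFD17 against TP5, beside 20.8%, 22.7% and 31.8% of all genes. With at least 10 counts in every library, the other eicosanoid genes at least 2-fold apart came to 2 in place of 8 with TP5, 8 in place of 14 with sFD17 and 1 in place of 4 with FR17, since fewer genes were then compared. With the 10 most abundant genes taken out of the total, the ratio to control of the neutrophil share in sFD17 stayed at 1.12. Alternatives added after seeing the data left out single genes. Without Hdc the mast cell and basophil share turned from 0.779 to 1.18 times control in TP5 and from 0.646 to 2.30 times in FR17. Without Pf4 the platelet share turned from 0.630 to 1.20 times in TP5 and from 0.484 to 1.22 times in sFD17. Without Siglecf the eosinophil share turned from 0.853 to 2.43 times in TP5 and from 0.558 to 1.03 times in sFD17, and moved from 1.37 to 2.68 times in FR17. Depth limits Ptges, with 76 to 116 counts, and Ltc4s and Hpgds in sFD17, with 50 and 82.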

Other observations

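Single genes of the marker lists, picked after their values were seen, stood out beside the eicosanoid genes. Hdc, which encodes the enzyme that makes histamine, was listed as a mast cell and basophil marker and had 61509 counts without peptide, 47794 with TP5, 75252 with sFD17 and 44552 with FR17. Its level of 3641, 2725, 5702 and 1941 CPM was highest in sFD17 and lowest in FR17, as that of Ptgs2 was. Pf4, a chemokine gene listed as a platelet marker, stood at 103 CPM without peptide, 37.2 with TP5, 18.7 with sFD17 and 129 with FR17, in the same order of libraries as Hpgds and Ltc4s.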
